A study of Mus musculus with 9 samples.

Results

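Aff1, Aff4, Ell and Med12 are 4 genes of transcription elongation and of the Mediator complex, chosen by name for their link to the kinases CDK9 and CDK8. They were 4 of the 251 genes in the authors' deposited table of cancer-annotated genes, dinaciclib against vehicle, and 4 of the 720 genes in either table of the study. None of the 4 is in the other table, which sets MGH-CP1 against vehicle, so they were not analysed under that compound. The cells were EHE17, a mouse endothelial tumour line of genotype TC+/+ Cdkn2a -/-, and every group shares that genotype. The first group received 300 nM dinaciclib for 16 h and the second the DMSO vehicle, with 3 biological replicates each. A further group, not compared here, received 10 µM MGH-CP1 for 16 h. All libraries come from this line, so they show 1 cell background, and whether the replicates were separate cultures on separate days is not given in the sources used here. Gene expression was measured by RNA sequencing of poly(A)-selected RNA.

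After RNA polymerase II starts a transcript it pauses close to the start site, and the kinase P-TEFb, made of CDK9 and a cyclin T, releases it. P-TEFb works within the super elongation complex, in which the scaffold proteins AFF1 and AFF4 hold the kinase together with ELL, a factor that raises the rate of elongation. Mediator carries signals from transcription factors to the polymerase, and MED12 belongs to its kinase module, where it activates CDK8. Dinaciclib inhibits several cyclin-dependent kinases, CDK9 among them. In human leukaemias the genes of AFF1, AFF4 and ELL are each known as fusion partners of KMT2A.

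All 4 genes lie on the plus strand, and the coordinates below are those of the authors' table, which match GRCm38 (GENCODE M21). Aff1 (ENSMUSG00000029313) spans 163 kb of chromosome 5 (103692374 to 103855322), with 23 merged exonic parts. Aff4 (ENSMUSG00000049470) spans 71.0 kb of chromosome 11 (53350833 to 53421830), with 21 exonic parts. Ell (ENSMUSG00000070002) spans 53.4 kb of chromosome 8 (70539457 to 70592858), with 13 exonic parts. Med12 (ENSMUSG00000079487) is the most compact, with 43 exonic parts in 23.4 kb of chromosome X (101274030 to 101297465). The annotated transcript Gm21986 shares 749 exonic bases, or 9.72% of the exonic bases of Med12, on the same strand, so the gene of reads in those bases is uncertain. No other annotated gene shares exonic bases with any of the 4.

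The sequences around the start sites are shown because 3 of the genes moved one way and Med12 the other, and a reader may want to compare the starts. RefSeq (GRCm38.p6) gives 5 windows of 300 bases for the 4 genes, 4 of 4 genes matched by symbol, and Aff1 has a pair of starts inside its annotated span. Capitals mark the GC box letters GGGCGG, read on both strands, where neighbouring matches may run together.
Aff1, first start, chr5:103753912-103754211, plus strand: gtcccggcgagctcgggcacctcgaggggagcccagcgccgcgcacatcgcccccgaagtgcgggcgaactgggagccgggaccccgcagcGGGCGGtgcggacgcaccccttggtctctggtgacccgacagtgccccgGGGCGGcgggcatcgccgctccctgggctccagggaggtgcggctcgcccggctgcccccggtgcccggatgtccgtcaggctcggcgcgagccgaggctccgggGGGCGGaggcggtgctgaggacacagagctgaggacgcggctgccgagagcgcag
Aff1, second start, chr5:103754323-103754622, plus strand: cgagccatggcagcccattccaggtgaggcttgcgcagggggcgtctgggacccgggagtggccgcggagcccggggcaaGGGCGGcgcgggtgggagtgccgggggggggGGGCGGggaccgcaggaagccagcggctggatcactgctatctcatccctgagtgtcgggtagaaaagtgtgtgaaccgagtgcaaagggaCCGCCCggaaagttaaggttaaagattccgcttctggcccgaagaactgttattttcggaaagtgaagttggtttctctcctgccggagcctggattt
Aff4, chr11:53350517-53350816, plus strand: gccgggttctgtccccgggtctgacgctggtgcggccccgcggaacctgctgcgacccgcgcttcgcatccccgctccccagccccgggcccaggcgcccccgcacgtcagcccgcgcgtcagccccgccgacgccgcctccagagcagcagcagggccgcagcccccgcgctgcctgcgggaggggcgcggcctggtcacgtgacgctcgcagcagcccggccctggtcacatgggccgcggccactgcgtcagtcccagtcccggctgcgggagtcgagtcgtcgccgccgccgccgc
Ell, chr8:70539425-70539724, plus strand: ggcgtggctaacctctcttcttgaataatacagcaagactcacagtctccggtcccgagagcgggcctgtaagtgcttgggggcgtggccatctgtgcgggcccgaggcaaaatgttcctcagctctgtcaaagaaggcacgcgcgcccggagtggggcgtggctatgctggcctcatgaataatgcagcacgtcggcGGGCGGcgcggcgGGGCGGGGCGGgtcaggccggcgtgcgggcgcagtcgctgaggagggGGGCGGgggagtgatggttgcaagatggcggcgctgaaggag
Med12, chrX:101273841-101274140, plus strand: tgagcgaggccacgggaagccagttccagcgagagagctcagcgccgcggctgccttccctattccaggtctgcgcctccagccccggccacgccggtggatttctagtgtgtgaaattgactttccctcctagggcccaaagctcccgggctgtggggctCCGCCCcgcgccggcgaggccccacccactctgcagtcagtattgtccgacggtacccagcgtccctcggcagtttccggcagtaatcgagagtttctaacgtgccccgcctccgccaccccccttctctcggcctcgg
The windows are rich in G and C: 77.3% and 63.0% for the starts of Aff1, 79.0% for Aff4, 66.3% for Ell and 66.3% for Med12, against a median of 52.7% over 32851 RefSeq windows. GGGCGG occurs 3 times in each Aff1 window, 4 times in the Ell window and 1 time in the Med12 window, and it has no match in the Aff4 window. It is found in 35.7% of all windows. The E-box letters CACGTG occur 1 time, in the Aff4 window, and in 7.15% of all windows. CCAAT and TATAAA, found in 37.4% and 13.6% of all windows, match in none of the 5 on either strand. These matches describe letters, and GGGCGG is present both in genes that fell and in the gene that rose.

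Dinaciclib libraries were shallow, with 2541162 to 3316779 counts, against 31852117 to 40020833 counts in vehicle libraries. The mean vehicle total was thus 12.2 times the dinaciclib total. The listed genes took 9.61% to 12.3% of all counts with dinaciclib and 2.53% to 2.57% with vehicle. Counts below were divided by the authors' size factors (normalised counts), so each value is relative to the rest of its library. The cause of the lower totals was not tested. Fewer cells, less RNA per cell, and library making or sequencing depth cannot be told apart. The authors' table lists cancer-annotated genes, and only those that they found changed by at least 1 on the log2 scale, up or down. Shares over the table thus do not describe all genes of the cells, and a gene absent from it may still have changed. When edgeR was run on the counts, with p-values adjusted by Benjamini-Hochberg over the table, 248 of 248 tested genes passed an adjusted p of 0.05 (100%), 186 lower (75%) and 62 higher (25%). All 4 genes passed, 3 lower and 1 higher, the same split as in the whole table. The calls add no evidence to the authors' own, since every tested gene passed. Of 11 endothelial markers, 2 are in the table, Kdr and Fli1, with a summed normalised count of 1826 to 2086 with dinaciclib and 9275 to 9770 with vehicle. None of the 12 markers of leukocytes, fibroblasts, mural cells or epithelium is in the table, and their part in the results was not tested.

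Both scaffold genes were lower with dinaciclib. Aff1 had 77.7, 197 and 98.3 normalised counts in dinaciclib replicates 1, 2 and 3, and 611, 580 and 574 in the vehicle replicates. All 3 dinaciclib libraries lay below all 3 vehicle libraries, and replicate 2 was the highest with dinaciclib. The mean was 124 ± 63.7 with dinaciclib and 588 ± 19.8 with vehicle (SD, n = 3 each), so that the level in vehicle was 4.73 times that with dinaciclib. The log2 fold change was −2.21 with SE 0.308 and a 95% interval of −2.92 to −1.50, and edgeR gave an adjusted p of 0.000132. The dinaciclib values rest on 21, 69 and 30 reads.

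Aff4, the other scaffold of the super elongation complex, had the highest normalised counts of the 4 genes in vehicle. It stood at 325, 602 and 305 in dinaciclib replicates 1, 2 and 3, against 1334, 1354 and 1297 in the vehicle replicates. The groups did not overlap, and replicate 2 again stood above the other dinaciclib libraries. The mean was 411 ± 166 with dinaciclib and 1328 ± 29.0 with vehicle (SD, n = 3 each). Its log2 fold change was −1.68 with SE 0.246 and a 95% interval of −2.25 to −1.12 (adjusted p 0.000181, edgeR). The reads behind it were 88, 211 and 93 with dinaciclib.

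Ell, the elongation factor itself, had a different order among the dinaciclib libraries. Its normalised counts were 189, 131 and 68.8 in dinaciclib replicates 1, 2 and 3, against 430, 433 and 433 in the vehicle replicates. Replicate 1 was the highest with dinaciclib and replicate 3 the lowest, a 2.74-fold range, while the vehicle libraries lay within 1.01-fold of each other. The mean was 130 ± 59.9 with dinaciclib and 432 ± 1.30 with vehicle (SD, n = 3 each). The log2 fold change was −1.75 with SE 0.303 and a 95% interval of −2.45 to −1.05 (adjusted p 0.000502, edgeR). It rests on 51, 46 and 21 dinaciclib reads.

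Med12, the activator of CDK8 within Mediator, was the single gene of the 4 that rose. It reached 925, 1184 and 796 normalised counts in dinaciclib replicates 1, 2 and 3, against 488, 499 and 464 in the vehicle replicates. All dinaciclib libraries lay above all vehicle libraries. The mean was 968 ± 198 with dinaciclib and 484 ± 18.0 with vehicle (SD, n = 3 each), a 2.00-fold difference. The log2 fold change was 1.00 with SE 0.171 and a 95% interval of 0.61 to 1.40 (adjusted p 0.000463, edgeR), on 250, 415 and 243 dinaciclib reads. This was the smallest rise among the 62 tested genes that were higher, and in the authors' deposited table its log2 fold change of 1.00 stands just inside their limit.

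**Figure D1:**
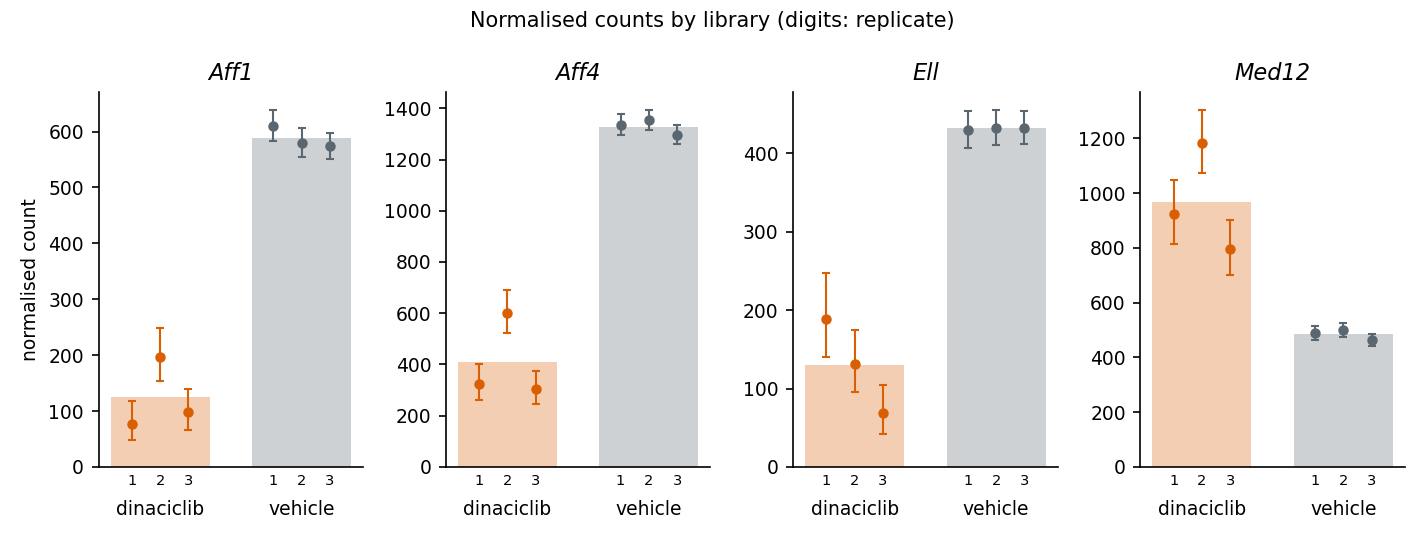
Normalised counts of Aff1, Aff4, Ell and Med12 in each of 3 dinaciclib and 3 vehicle libraries, with separate linear axes. Points are libraries labelled by replicate, their bars are 95% Poisson intervals of the count, and columns are group means. The groups do not overlap in any of the 4 genes, and Aff1, Aff4 and Ell are lower and Med12 higher with dinaciclib.

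The replicate ranges were separate in 4 of 4 genes, as in 99.6% of the 248 tested genes. The spread among the dinaciclib libraries was wide: the coefficient of variation was 51.3% for Aff1, 40.4% for Aff4, 46.3% for Ell and 20.4% for Med12, against 3.36%, 2.18%, 0.302% and 3.72% for the same genes in vehicle. Over the 179 listed genes that were lower and had any dinaciclib reads, the median was 35.9% with dinaciclib and 3.27% with vehicle. Over the 65 higher genes it was 14.1% with dinaciclib and 4.13% with vehicle. The spread of the 4 genes was wider than counting error among the dinaciclib libraries, where chi-square per degree of freedom was 8.11 to 21.4, and lay at 0.0127 to 2.43 among the vehicle libraries. For Aff1 the 95% Poisson interval in replicate 2 was 153 to 249 normalised counts, above the 48.1 to 119 of replicate 1 and the 66.3 to 140 of replicate 3. Intervals and reads cover counting error only.

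Dinaciclib replicate 2 was the highest of its group for Aff1, Aff4 and Med12. Among the 179 lower genes with reads, 93 (52.0%) had their highest dinaciclib value in replicate 2, 55 in replicate 1 and 31 in replicate 3. Aff1 and Aff4 were thus highest in the replicate that was most often the highest among falling genes, and Ell in the next. Among the 65 higher genes only 8 (12.3%) were highest in replicate 2, Med12 among them, while 41 (63.1%) were highest in replicate 3. The part of library differences in these orders was not tested. Without dinaciclib replicate 2 the log2 fold change was −2.73 for Aff1, −2.08 for Aff4, −1.79 for Ell and 0.83 for Med12, each still past the threshold.

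Set among all tested genes, Aff1, Aff4 and Ell were ordinary in the size of their fall. The median log2 fold change was −1.83 over the 248 tested genes and −2.39 over the 186 lower ones. Aff1 ranked as the 105th largest fall, Ell as the 131st and Aff4 as the 138th. Relative to the median of all tested genes, Aff1 lay 0.38 below it on the log2 scale (a difference of −0.38), Ell at 0.08 and Aff4 at 0.15 above it, and Med12 at 2.83 above it. Every other higher gene lay further above this median, since Med12 had the smallest rise of the 62.

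**Figure D2:**
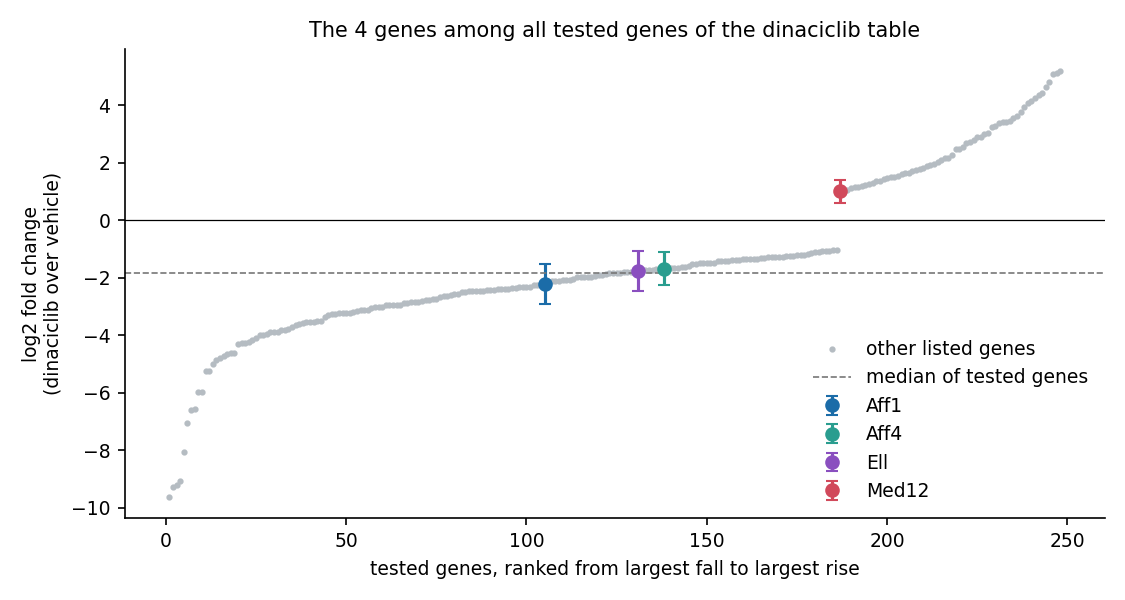
Log2 fold changes of dinaciclib over vehicle for the 248 tested genes, ranked from the largest fall to the largest rise, with 95% intervals for the 4 genes and a dashed line at the median of −1.83. Aff1, Ell and Aff4 sit near the median, and Med12 is the first gene of the rising arm. The gap around 0 reflects the authors' choice of listed genes.

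The calls of the 3 falls depend on the library scale. The authors' size factors and total counts gave nearly the same changes: with total counts the median of all tested genes moved by 0.13, and the log2 fold changes were −2.08 for Aff1, −1.55 for Aff4, −1.62 for Ell and 1.14 for Med12. TMM factors over the listed genes, which take most listed genes as unchanged, moved the median by 1.61 and the split of calls to 70 higher and 96 lower, against 62 and 186. Under them Aff1 stood at −0.61 (adjusted p 0.0655), Aff4 at −0.085 (adjusted p 0.713) and Ell at −0.13 (adjusted p 0.692), all by edgeR and no longer past the threshold. Med12 stayed past it, at 2.62 (adjusted p 7.45e-08, edgeR). The distances from the median under TMM were −0.40 for Aff1, 0.13 for Aff4, 0.08 for Ell and 2.83 for Med12. They hardly moved because a change of scale shifts all genes by nearly the same amount, so this adds no evidence. A scale free of the authors' choice of genes cannot be had from a table of picked genes.

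**Figure D3:**
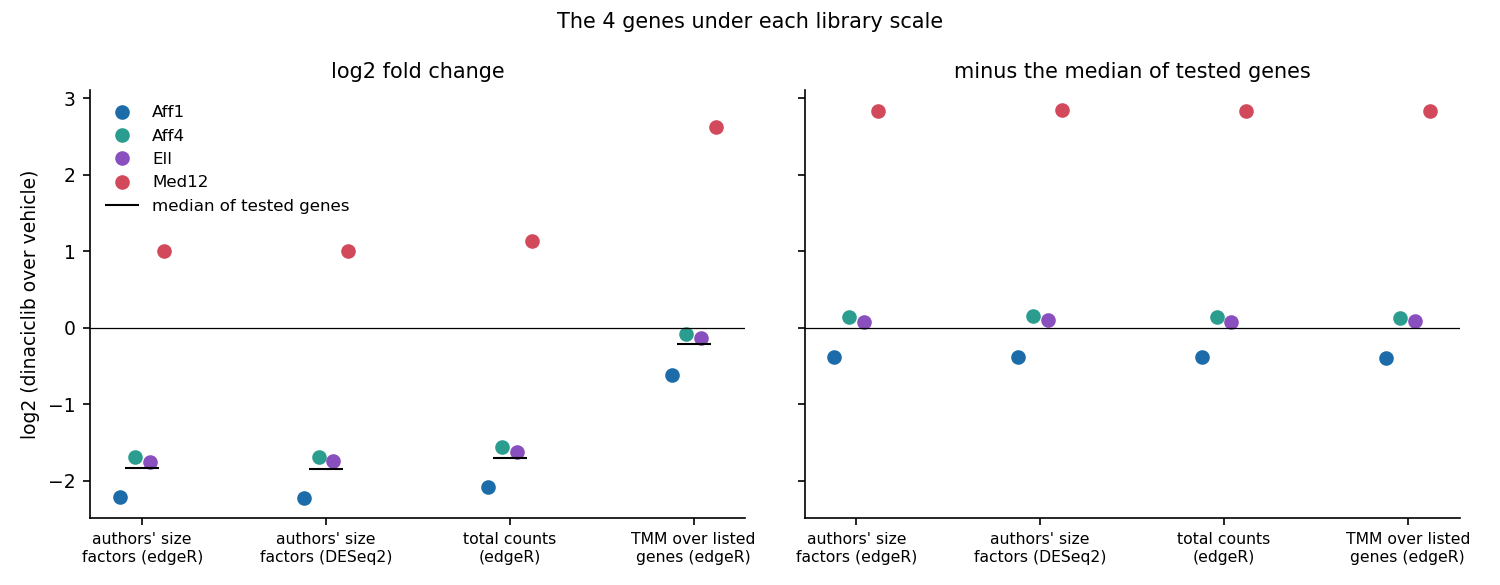
Left, log2 fold changes of the 4 genes under the authors' size factors in edgeR and in DESeq2, total counts, and TMM factors over the listed genes, with the median of tested genes as a black dash. Right, the same values minus that median. Aff1, Aff4 and Ell move with the median towards 0 under TMM, and Med12 stays 2.83 to 2.85 above the median under the 4 settings drawn. A change of scale shifts all genes by nearly the same amount, so distances from the median are nearly fixed in advance.

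Ratios between the genes within a library do not depend on the library scale. There were 4.90, 9.02 and 11.6 Med12 reads for each Ell read in dinaciclib replicates 1, 2 and 3, against 1.13, 1.15 and 1.07 in the vehicle replicates. Med12 reads outnumbered Aff4 reads by 2.84, 1.97 and 2.61 times with dinaciclib, against ratios of 0.366, 0.369 and 0.358 with vehicle, so the order of the pair was opposite in the 2 groups. For Med12 to Aff1 the ratios were 11.9, 6.01 and 8.10 with dinaciclib and 0.799, 0.861 and 0.808 with vehicle. On the log2 scale these 3 ratios were higher with dinaciclib by 2.84, 2.75 and 3.34, and no replicate of one group reached the other. Every listed gene rose or fell by at least 1, so a ratio of a rising to a falling gene must go this way. The direction of these 3 ratios was thus set by the choice of genes and adds no evidence. For each of them the exact permutation test over samples gave a two-sided p of 0.1, which is the smallest that 3 libraries against 3 allow, and 0.15 after Benjamini-Hochberg adjustment over the 6 pairs.

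The proportion of the scaffolds was compared in the same way. There were 0.239, 0.327 and 0.323 Aff1 reads for each Aff4 read in dinaciclib replicates 1, 2 and 3, against 0.458, 0.428 and 0.443 in the vehicle replicates. The log2 ratio was −1.77 ± 0.257 with dinaciclib and −1.18 ± 0.0480 with vehicle (SD, n = 3 each), a difference of −0.59. The groups did not overlap, and how often other pairs of falling genes separate was not examined. The difference did not pass the threshold (exact permutation p 0.1, adjusted p 0.15). With 3 libraries against 3 this test could not have passed it, so it does not decide the question. The ratios to Ell were not separable: Aff1 to Ell differed by −0.50 and Aff4 to Ell by 0.09, with ranges that overlapped (exact permutation p 1 for both). Dinaciclib replicate 1 decides the first, which was 0.10 without it. Aff4 to Ell was −0.15 without dinaciclib replicate 2 and −0.13 without replicate 3.

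**Figure D4:**
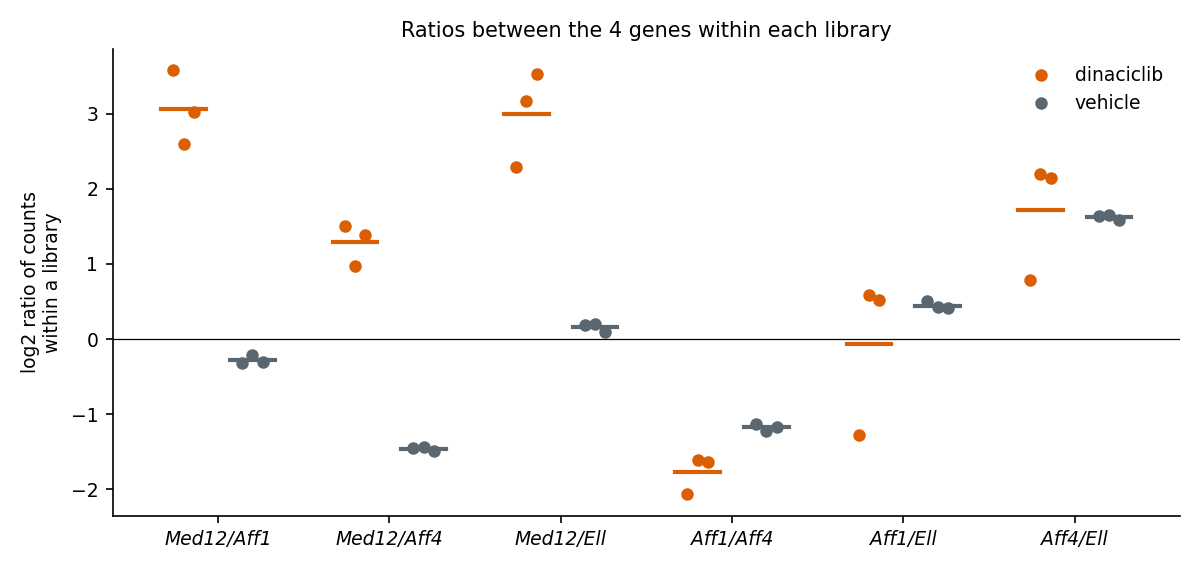
Log2 ratio of read counts between each pair of the 4 genes within each library, with dinaciclib libraries left of vehicle libraries. Points are libraries and lines are group means. The 3 ratios with Med12 on top are higher with dinaciclib, a direction set by the choice of genes. Aff1/Aff4 is lower, and the ratios of Aff1 and Aff4 to Ell overlap.

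Levels between genes can be set side by side only per length, as FPKM, the authors' count scaled by gene length and library total. With dinaciclib Med12 was highest at 13.3 ± 2.66 FPKM, followed by Ell at 4.43 ± 2.05, Aff4 at 3.24 ± 1.29 and Aff1 at 1.39 ± 0.707 (SD, n = 3). In vehicle Ell was highest at 13.5 ± 0.0663 FPKM, followed by Aff4 at 9.57 ± 0.207, Med12 at 6.08 ± 0.225 and Aff1 at 6.02 ± 0.191 (SD, n = 3). The neighbours Ell and Aff4 overlapped with dinaciclib, at 2.36 to 6.46 and 2.42 to 4.73 FPKM. In vehicle the overlapping neighbours were Med12 and Aff1, at 5.84 to 6.28 and 5.88 to 6.24 FPKM. Med12 was thus level with the lowest scaffold in vehicle and above every other gene of the set in each dinaciclib library.

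The 3 genes that fell have longer spans than Med12, and the table shows such a difference more widely. The median span was 47.8 kb over the lower genes and 20.9 kb over the higher genes. Of the 83 genes of shortest span, up to 23.4 kb, 36 (43.4%) were higher, and Med12 stands at the upper edge of that group. Of the 82 genes of middle span, which hold Ell, 14 (17.1%) were higher, and of the 83 longest, which hold Aff1 and Aff4, 12 (14.5%). Across the 248 genes the rank correlation of span with the log2 fold change was −0.03 (Spearman, a description over genes that share libraries and the authors' selection). Higher genes were thus more frequent among short spans, while the signed log2 fold change had almost no rank order with span. The size of the change without its sign was not compared with span.

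**Figure D5:**
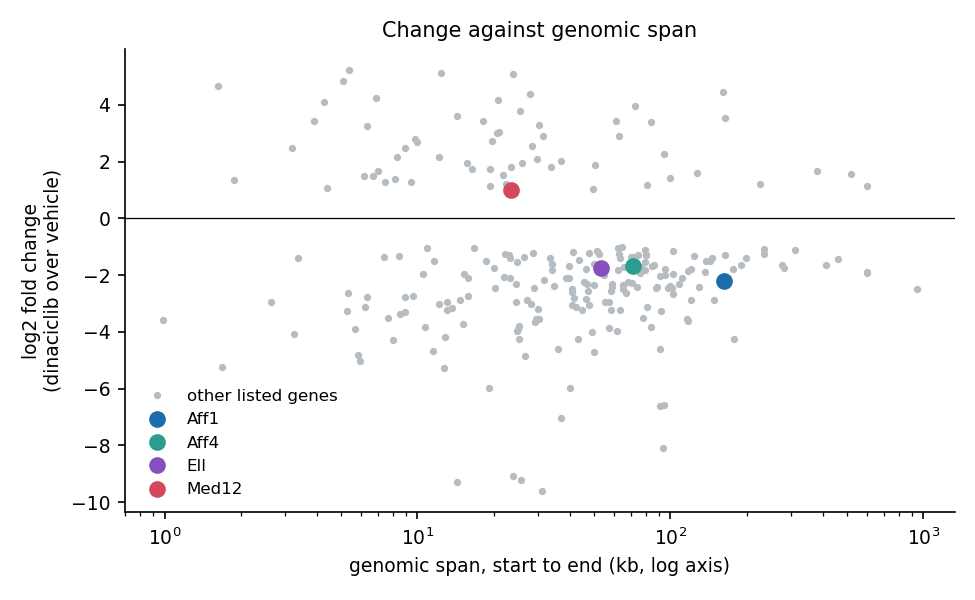
Log2 fold change of dinaciclib over vehicle against genomic span in kb (log axis) for the 248 tested genes, with the 4 genes in colour. Med12, at 23.4 kb, lies left of Ell, Aff4 and Aff1, and rising genes are more frequent at short spans.

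Other genes of the same machinery, and KMT2A with some partners of its fusions, were looked for in lists of 99 genes. With dinaciclib 3 were in the table, 3 of 3 passed the test and all 3 were lower, against 75% of all tested genes. Brd3 encodes a bromodomain protein of the BET family, which binds acetylated histones. It had 185, 448 and 351 normalised counts with dinaciclib, against 664, 701 and 703 with vehicle. Its log2 fold change was −1.06 with SE 0.277 (adjusted p 0.00513, edgeR), and with TMM factors its sign turned, at 0.55.

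The other 2 belong to a list of 9 genes, KMT2A and some partners of its fusions. Partners outside that list were not looked for, so the list does not describe fusion partners as a whole. Men1 encodes menin, the tumour suppressor protein that tethers KMT2A to chromatin, and it had the steepest fall of these 7 genes. It had 11.1, 14.3 and 36.0 normalised counts with dinaciclib, against 655, 627 and 705 with vehicle. Its log2 fold change was −5.01 with SE 0.330 (adjusted p 1.28e-06, edgeR), on 19 dinaciclib reads in all, and the change was −5.68 without dinaciclib replicate 3. Afdn encodes afadin, an actin-binding protein of cell junctions whose gene is a KMT2A fusion partner in human leukaemia. It had 584, 599 and 563 normalised counts with dinaciclib, against 1521, 1546 and 1546 with vehicle, the tightest replicates of these 7 genes with dinaciclib. Its log2 fold change was −1.40 with SE 0.101 (adjusted p 2.07e-06, edgeR), and with TMM factors it stood at 0.23 (adjusted p 0.147).

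The remaining 96 genes of these lists have no values in the dinaciclib table and were not analysed here: they include 8 other genes of the super elongation complex, 6 of the Mediator kinase module, 26 of the rest of Mediator, 20 pausing and elongation factors and 13 subunits of RNA polymerase II. A single gene of the lists is present in the MGH-CP1 table, Rn7sk, the 7SK RNA that holds P-TEFb inactive. It had 63, 81 and 57 reads in the MGH-CP1 replicates, against 29, 5 and 13 in the vehicle replicates. As normalised counts these were 73.0, 114 and 67.7, against 25.6, 4.11 and 9.07. In the authors' deposited table its log2 fold change was 2.74 at an adjusted p of 1.66e-08. The RNA was poly(A)-selected and the reads are few. Whether they follow the level of Rn7sk in the cells was not tested.

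For each of the 4 genes, the listed genes with the most similar profile over the 6 libraries were found by the root mean square difference of log2(normalised count + 1), each gene centred on its vehicle mean, among 228 genes. Nearest to Aff1 were Map2k1 (0.143), Eml4 (0.211) and Golga5 (0.220), and Aff4 came only as the 26th. Nearest to Aff4 were Foxo1 (0.111), Setd2 (0.145) and Bcl2 (0.154). Foxo1 had 151 ± 79.9 normalised counts with dinaciclib and 490 ± 16.2 with vehicle. Nearest to Ell were Rel (0.146), Arid2 (0.203) and Maml2 (0.256), with Aff4 as the 19th. Nearest to Med12 were Lpp (0.179), Kmt2c (0.185) and Traf7 (0.251). Kmt2c had 634 ± 251 normalised counts with dinaciclib and 278 ± 21.6 with vehicle. None of the 4 genes was thus among the 3 nearest of another.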

How the data were processed

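The submitters' processing notes name DESeq2 1.20.0, featureCounts 1.5.0-p3, HISAT2 2.0.5 and fastp. No genome build or annotation is given in the sources used here. Per the labels, second strands were made with dTTP, so reads carry no strand mark. Coordinates were taken as GRCm38 because 242 of 251 genes (96.4%) have the same start and end in GENCODE M21. The authors deposited raw counts per gene, FPKM, and a normalised signal equal to each count over a size factor of its library. Library totals were worked out from the deposited count, FPKM and length, and 100% of nonzero values agreed on factor and total within a relative 1e-06. The log2 fold changes and p-values of the deposited tables are the authors' own comparison.

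Counts of the 6 libraries were fitted with edgeR 4.0.16 (R 4.3.3) by the two-sided quasi-likelihood test, with the authors' size factors, no covariate, and filterByExpr at a minimum count of 10. This kept 248 genes, and Benjamini-Hochberg adjustment ran over all of them. Code was tested on simulated data. Ratios were tested by exact permutation (scipy 1.17.1). Alternatives were TMM, total counts, DESeq2 1.42.0, no filter, a threshold of 0.01, a replicate block, and leaving out each replicate. Replicate pairs differed by 5.28 to 13.5 times the chi-square of sampling noise per degree of freedom. The edgeR p-values set the difference between groups against the spread among these libraries within groups. Permutation p-values compare that difference with regroupings of the same libraries. Genes named beside the 4 are all listed genes of the lists and the 3 nearest profiles, among genes with a mean of at least 50 normalised counts. Part of the table is not reported here. The 4 genes and the lists were chosen with earlier results of these data known.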

Additional observations from a re-analysis of the deposited data

How the results depend on the processing

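Under TMM factors over the listed genes the log2 fold changes of Aff1, Aff4 and Ell were −0.61, −0.085 and −0.13 and lost their calls. Of the 3 other genes from the lists, only Men1 still passed, at −3.39 (adjusted p 1.77e-05, edgeR). Brd3 and Afdn changed sign, at 0.55 and 0.23. TMM factors centre on the listed genes by construction. Total counts, DESeq2, no filter and a threshold of 0.01 changed no call of the 4 genes. Same-numbered libraries did not deviate together (correlations of −0.03, 0.01 and −0.20 over 251 genes), and with the replicate number as a block the fit called 240 genes in place of 248, with −1.75 for Aff4, −1.82 for Ell and 0.98 for Med12. Leaving out each replicate in turn gave −2.73 to −1.97 for Aff1, −2.08 to −1.49 for Aff4, −2.08 to −1.46 for Ell and 0.83 to 1.13 for Med12, and 240 to 249 called genes. The same omissions gave log2 ratio differences of −0.67 to −0.45 for Aff1/Aff4, 3.09 to 3.58 for Med12/Aff1, 2.64 to 2.90 for Med12/Aff4 and 2.57 to 3.19 for Med12/Ell. They gave −0.83 to 0.10 for Aff1/Ell and −0.15 to 0.55 for Aff4/Ell, which changed sign, at 0.10 without dinaciclib replicate 1 for the first and at −0.15 and −0.13 without dinaciclib replicates 2 and 3 for the second. FPKM in place of counts left each ratio difference as it was, which is no check, since gene length and library total cancel in it. The dinaciclib values rest on few reads, with 118 for Ell and 120 for Aff1.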
